A study of Mus musculus with 48 samples.

Results

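Expression of 6 genes that mark activated dendritic cells, and the signals these cells give to T cells, was followed through the fat tissue of mice on 6 diets. They were Cd83, Ccl22, Cd80, Cd86, Cd40 and Batf3, found by symbol among the 547 immune genes of a mouse immunology panel. All 6 matched a row and all 6 passed the filter on low counts. The samples were epididymal white fat pads of 48 C3H/HeOuJ mice fed freely for 6 months, 1 sample per mouse as far as the labels show, with age not given. Control mice ate chow (n = 8). Custom diets gave 42% of calories as carbohydrate and 42% as fat. With palmitate, a saturated fatty acid, 8 mice ate sucrose/palmitate and 7 ate starch/palmitate. With oleate, a monounsaturated one, 9 ate sucrose/oleate and 9 ate starch/oleate. The last 7 mice ate a commercial Western diet, listed with the same energy shares. The mice carried no transgene or allele named in the labels, so diet was the only labelled difference.

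A dendritic cell that meets a danger signal takes up antigen, moves to a lymph node and raises the proteins by which it instructs T cells. CD80 and CD86 bind CD28 on the T cell and give the second, costimulatory signal, or bind CTLA-4 and restrain it. CD40 receives help from CD40 ligand on T cells and signals through NF-kappa B, CD83 is a surface marker of the mature state, CCL22 draws T cells that carry CCR4, and BATF3 is needed for the cross-presenting type of dendritic cell. In fat, macrophages and B cells also express several of these genes, so no gene of the set belongs to dendritic cells alone.

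Measurement was by counting barcoded probes bound to RNA, without amplification. Counts were divided by a factor from 14 reference genes, and these scaled counts are the levels given throughout. Total gene counts ran from 396391 to 888687 per sample, and every count of the 6 genes was above the highest negative control probe of its own sample. The panel held 4 of 8 listed dendritic cell markers, without Flt3, Zbtb46, Clec9a and Cd209a. Itgax, which marks myeloid cells and not dendritic cells alone, had a mean count of 4997. The mean count was 611 for Irf8, 87.8 for Irf4 and 37.2 for Xcr1, and Xcr1 exceeded the highest negative control in 47 of 48 samples. Samples standing apart were chow replicate 4, with an Itgax level of 171 against a chow median of 2097, Western diet replicate 2, which was lowest of its group for all 6 genes, and sucrose/oleate replicate 2, with a summed neutrophil marker level of 5305 against a group median of 571. Summed epithelium genes, with a chow median of 237, stood from 4004 to 29719 in starch/palmitate replicates 1 and 3, starch/oleate replicates 2 and 6 and Western diet replicate 6. Without these 5 the calls on Cd86 with starch/palmitate (adjusted p = 0.0958), Cd40 with the Western diet (adjusted p = 0.0508) and Cd40 in the F test of all diets (adjusted p = 0.0647) were lost. Results that rest on the first 3 are given with and without them, apart from correlations within single diets. In whole tissue, more cells of a type and more RNA per cell cannot be told apart. Differences are log2 values ± SE from edgeR's quasi-likelihood test, with p-values adjusted over the 491 genes tested and a threshold of 0.05. These p-values measure only the spread between samples.

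Sequence was at hand for the promoters of Ccl22, Cd80 and Batf3 (RefSeq, build GRCm38.p6). The 250 bases before the start of Ccl22 and of Cd80 are shown because both genes rose on starch/oleate and both are textbook NF-kappa B targets. Capitals mark matches to the kappa B pattern GGGNNNNNCC on either strand.
Ccl22: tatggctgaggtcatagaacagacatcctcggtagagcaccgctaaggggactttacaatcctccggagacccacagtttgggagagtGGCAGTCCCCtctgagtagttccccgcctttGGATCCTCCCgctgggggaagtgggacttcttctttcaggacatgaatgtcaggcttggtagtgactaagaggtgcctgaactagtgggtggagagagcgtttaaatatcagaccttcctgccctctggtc
Cd80: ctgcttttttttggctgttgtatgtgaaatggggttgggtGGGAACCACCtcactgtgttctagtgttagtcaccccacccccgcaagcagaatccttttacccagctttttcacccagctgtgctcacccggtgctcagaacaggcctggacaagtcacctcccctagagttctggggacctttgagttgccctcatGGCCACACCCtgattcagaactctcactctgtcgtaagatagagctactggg
The Ccl22 stretch lies on the plus strand at chr8:94745434-94745683 and that of Cd80 on the plus strand at chr16:38458683-38458932. Each holds 2 matches, and the stretch of Batf3 holds 3 that overlap. This loose pattern was present in 45.8% of 32851 promoter stretches of the same length, so a match is common. The AP-1 pattern TGANTCA occurred in the Cd80 stretch, 42 bases before the start, and in 6.75% of all promoters. The interferon response pattern GAAANNGAAA, present in 2.98% of all promoters, was in none of the 3 stretches.

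Over the 6 diets, 4 of the 6 genes differed in the F test of any difference, beside 64.8% of all genes tested. These were Cd83 (adjusted p = 2.15e-05), Ccl22 (adjusted p = 0.00652), Cd80 (adjusted p = 0.0292) and Cd40 (adjusted p = 0.0391). Cd86 (adjusted p = 0.0712) and Batf3 (adjusted p = 0.335) did not pass. Each gene passed against chow on a different set of diets, and the genes are therefore taken in turn. The comparisons with chow share the same 8 chow samples.

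**Figure D1:**
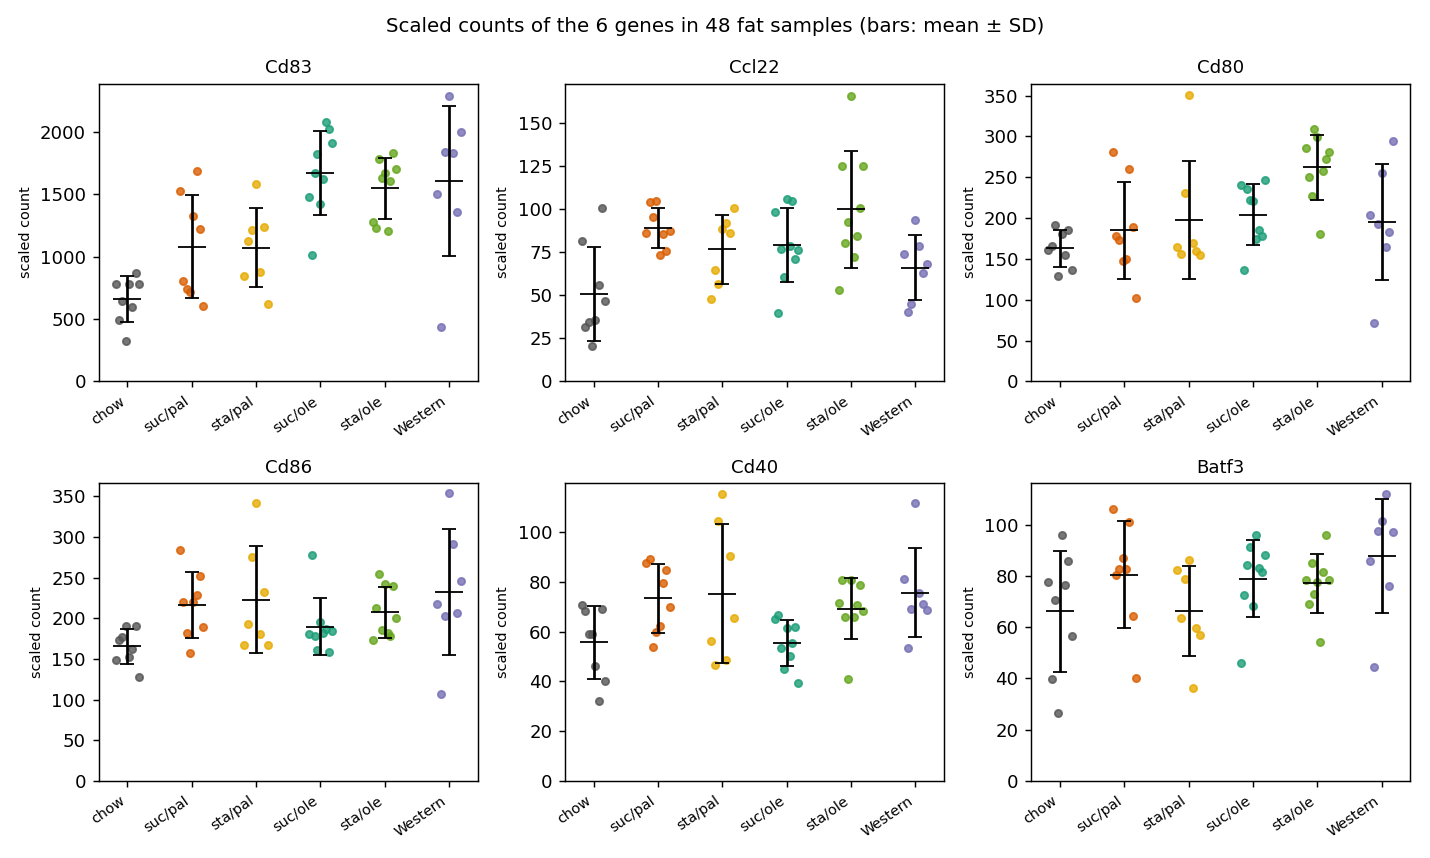
Scaled counts of the 6 genes in each of the 48 fat samples by diet (suc, sucrose; sta, starch; pal, palmitate; ole, oleate); horizontal marks with bars are the mean ± SD. Cd83 of all sucrose/oleate and starch/oleate samples lies above the highest chow sample at 867, and Western diet replicate 2 is the lowest Western diet point in every panel.

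Cd83, the surface marker of mature dendritic cells, was the most responsive of the 6. On chow it ran from 323 to 867 with a median of 712. It ran from 607 to 1685 (median 1014) on sucrose/palmitate and from 621 to 1585 (median 1128) on starch/palmitate. On the oleate diets it was higher still, at 1014 to 2075 (median 1666) with sucrose and 1204 to 1831 (median 1634) with starch. The medians stood in the order chow, palmitate diets, oleate diets. The palmitate ranges overlapped both chow and the oleate ranges, and only the oleate ranges were clear of chow. The Western diet samples ran from 432 to 2288 (median 1831), and 6 of 7 lay above the chow range.

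Cd83 rose in each of the 5 comparisons with chow. The difference was 1.34 ± 0.22 with sucrose/oleate (2.53-fold, adjusted p = 1.17e-05), 1.23 ± 0.22 with starch/oleate (2.35-fold, adjusted p = 9.92e-06) and 1.29 ± 0.23 with the Western diet (2.44-fold, adjusted p = 4.28e-05). In both oleate groups all 9 samples exceeded the highest chow sample, which held for 5.3% of all genes with sucrose/oleate and 19.6% with starch/oleate. The palmitate diets gave 0.71 ± 0.23 with sucrose (1.63-fold, adjusted p = 0.0323) and 0.70 ± 0.23 with starch (1.63-fold, adjusted p = 0.0225). Neither palmitate call was firm. The starch/palmitate call was lost without chow replicate 4 (adjusted p = 0.0579) or starch/palmitate replicate 4 (adjusted p = 0.0760), and the sucrose/palmitate call in 7 of 16 such fits, those without chow replicates 2, 4 or 6 or sucrose/palmitate replicates 1, 5, 6 or 7 (highest adjusted p = 0.0811). Positive control A over B, a ratio of synthetic RNAs added to each assay, ran from 3.17 to 3.39 on chow, 2.92 to 3.16 on starch/palmitate and 2.92 to 3.07 on sucrose/oleate. The labels name no assay run. For these 2 diets, whatever shifted this ratio cannot be told apart from the diet. With the ratio as a covariate the Cd83 differences were 0.37 (adjusted p = 0.591) and 0.96 (adjusted p = 0.0696). The same covariate ended the calls on Cd83 with sucrose/palmitate (0.58, adjusted p = 0.0925), Ccl22 with sucrose/oleate (0.96, adjusted p = 0.0822) and Cd86 with starch/palmitate (0.19, adjusted p = 0.679). The starch/oleate ratios, 3.11 to 3.28, did not overlap those of sucrose/oleate. Sucrose against starch with oleate thus cannot be told apart from a shift in this ratio either.

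Between the custom diets, Cd83 was the one gene of the set that passed for the kind of fat over both carbohydrates, with scaling to the reference genes, while Cd40 and Cd86 passed with TMM scaling and DESeq2. It fell by 0.58 ± 0.16 with palmitate against oleate over both carbohydrates (adjusted p = 0.00451), beside 23.6% of all genes lower in that comparison. The step was of like size with sucrose (-0.63 ± 0.22, adjusted p = 0.0822) and with starch (-0.53 ± 0.23, adjusted p = 0.0694), and neither step passed alone. The step with sucrose passed without sucrose/palmitate replicate 1 (adjusted p = 0.0478) or replicate 6 (adjusted p = 0.0368), and that with starch without starch/palmitate replicate 4 (adjusted p = 0.0264). The comparison over both carbohydrates kept this call in all 9 alternative analyses and in all 33 fits that left out 1 sample, with values from -0.64 to -0.53 in the latter. In the order of its means (sucrose/oleate 1669, Western diet 1606, starch/oleate 1548, sucrose/palmitate 1077, starch/palmitate 1072, chow 659), the neighbours starch/palmitate and chow differed. Starch/oleate against sucrose/palmitate gave an adjusted p of 0.0522, which passed in 3 of 9 alternatives (lowest adjusted p = 0.0370) and without sucrose/palmitate replicates 1, 5 or 6 or starch/oleate replicates 2 or 6 (lowest adjusted p = 0.0200), and the other neighbours were at most 0.06 apart on the log2 scale.

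Cd83 tracked a marker of myeloid cells closely. Of the 485 other genes tested, the 3 with the pattern most like Cd83 over the 48 samples were Itgax, the CD11c integrin chain (Spearman rho 0.951), Il7r, the receptor for interleukin 7 (0.927), and Ncf4, a subunit of the phagocyte NADPH oxidase (0.922). After subtraction of diet means these were 0.901, 0.917 and 0.944, so the relation held among mice on one diet. Its rho with the macrophage gene Emr1 was 0.834, whereas with Xcr1, a marker of cross-presenting dendritic cells, it was 0.107. All values come from the same libraries and one scaling factor per sample, and the median rho of Cd83 with all genes was 0.234.

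Ccl22, the chemokine that draws CCR4-bearing T cells, was higher on 3 of the 5 diets. On chow it ran from 20.5 to 100 with a median of 41.1, and 6 of the 8 chow samples lay below the lowest sucrose/palmitate sample. It ran from 73.3 to 105 (median 86.5) on sucrose/palmitate and from 47.8 to 101 (median 86.0) on starch/palmitate. The range was 39.6 to 106 (median 76.5) on sucrose/oleate and 53.3 to 165 (median 92.6) on starch/oleate. On the Western diet it was 40.3 to 93.6 (median 67.9), within the chow range. Every diet overlapped chow, because the highest chow sample reached 100.

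The rise in Ccl22 was 0.97 ± 0.23 with starch/oleate (1.96-fold, adjusted p = 0.000348), and all 9 samples were above the chow mean. It was 0.81 ± 0.23 with sucrose/palmitate (1.75-fold, adjusted p = 0.0202) and 0.63 ± 0.23 with sucrose/oleate (1.55-fold, adjusted p = 0.0264). Starch/palmitate gave 0.59 ± 0.24 (adjusted p = 0.0653) and the Western diet 0.38 ± 0.24 (adjusted p = 0.215). The starch/oleate rise kept its call in all 17 fits that left out 1 sample. The sucrose/palmitate rise lost it without chow replicate 4 (adjusted p = 0.0590), and the sucrose/oleate rise without chow replicates 2, 3, 4 or 5 or sucrose/oleate replicates 5 or 7 (highest adjusted p = 0.0760). Conversely, Ccl22 passed on starch/palmitate without chow replicates 1 or 7 or starch/palmitate replicate 1 (lowest adjusted p = 0.00891), and on the Western diet without chow replicate 7 (adjusted p = 0.0376). No neighbours in the order of its 6 means passed, nor did any comparison between the custom diets.

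The nearest patterns to Ccl22 belonged to Kit, the stem cell factor receptor of mast cells and progenitors (rho 0.649), Ccl5, a T cell chemokine (0.608), and Cd109 (0.579), with 0.552, 0.506 and 0.498 after subtraction of diet means. With Itgax and Emr1 its rho was 0.312 and 0.258, far lower than those of Cd83, and the median over all genes was 0.204.

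Cd80 and Cd86, the paired ligands of CD28, passed against chow on different diets. This alone does not show that the genes differ, and their ratio within samples is given below. Cd80 ran from 129 to 192 on chow (median 164) and from 181 to 309 on starch/oleate (median 272), where 8 of 9 samples exceeded the chow range. It ran from 136 to 247 (median 221) on sucrose/oleate, from 102 to 281 (median 175) on sucrose/palmitate and from 154 to 351 (median 165) on starch/palmitate. On the Western diet it ran from 71.9 to 295 (median 193). Every diet overlapped the chow range. The Cd80 difference was 0.69 ± 0.19 with starch/oleate (1.61-fold, adjusted p = 0.00165), kept in all 17 fits that left out 1 sample. The other diets gave 0.18 to 0.33 and adjusted p from 0.172 to 0.521.

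Cd86 ran from 128 to 191 on chow (median 168), with an SD of 21.8. It ran from 157 to 284 (median 220) on sucrose/palmitate, from 167 to 342 (median 193) on starch/palmitate and from 106 to 353 (median 217) on the Western diet. The oleate diets gave 159 to 277 (median 182) with sucrose and 173 to 255 (median 200) with starch. All groups overlapped chow, although 6 of 7 Western diet samples lay above it. Cd86 rose by 0.49 ± 0.16 with the Western diet (1.40-fold, adjusted p = 0.0143) and by 0.43 ± 0.16 with starch/palmitate (1.35-fold, adjusted p = 0.0469). Sucrose/palmitate gave 0.39 ± 0.16 (adjusted p = 0.0805) and passed without sucrose/palmitate replicate 4 (adjusted p = 0.0479). The values were 0.20 ± 0.15 (adjusted p = 0.336) with sucrose/oleate and 0.33 ± 0.15 (adjusted p = 0.0627) with starch/oleate. The Western diet call on Cd86 was lost without Western diet replicate 4 (adjusted p = 0.0794). The starch/palmitate call was lost in 9 of 15 fits, without chow replicates 1, 2, 3, 5, 6 or 8 or starch/palmitate replicates 3, 4 or 6 (highest adjusted p = 0.196).

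Cd40, the receptor for T cell help, had its highest mean on the Western diet, and no neighbours in the order of its 6 means passed. It ran from 32 to 70.9 on chow (median 59.1) and from 53.2 to 111 on the Western diet (median 70.9). The palmitate diets gave 54.0 to 89.2 (median 74.7) with sucrose and 46.6 to 115 (median 65.3) with starch. The oleate diets gave 39.4 to 66.8 (median 55.4) with sucrose, wholly inside the chow range, and 41.2 to 80.7 (median 70.5) with starch. Cd40 rose by 0.44 ± 0.18 with the Western diet alone (1.36-fold, adjusted p = 0.0460). That call was lost in 9 of 15 fits, without chow replicates 3, 4, 5, 6 or 8 or Western diet replicates 1, 4, 5 or 6 (highest adjusted p = 0.169). With starch/palmitate Cd40 gave 0.43 ± 0.18 (adjusted p = 0.0689) and passed without chow replicates 1 or 7 or starch/palmitate replicates 1, 2 or 5 (lowest adjusted p = 0.0286). With sucrose/palmitate it gave 0.40 ± 0.18 (adjusted p = 0.106), and with starch/oleate 0.31 ± 0.17 (adjusted p = 0.110), which passed without starch/oleate replicate 4 (adjusted p = 0.0467). Sucrose/oleate gave -0.01 ± 0.17.

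Batf3, the transcription factor of cross-presenting dendritic cells, passed in no comparison. It ran from 26.5 to 95.8 on chow (median 73.5) and had its highest median, 97.1, on the Western diet (44.6 to 112). The medians were 82.7 on sucrose/palmitate, 63.5 on starch/palmitate, 83.1 on sucrose/oleate and 78.4 on starch/oleate, and all ranges overlapped. The difference from chow was 0.41 ± 0.20 with the Western diet (adjusted p = 0.105), and Batf3 passed there without chow replicate 5 (adjusted p = 0.0496) or Western diet replicate 2 (adjusted p = 0.0302). With starch/palmitate it was 0.00 ± 0.20.

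**Figure D2:**
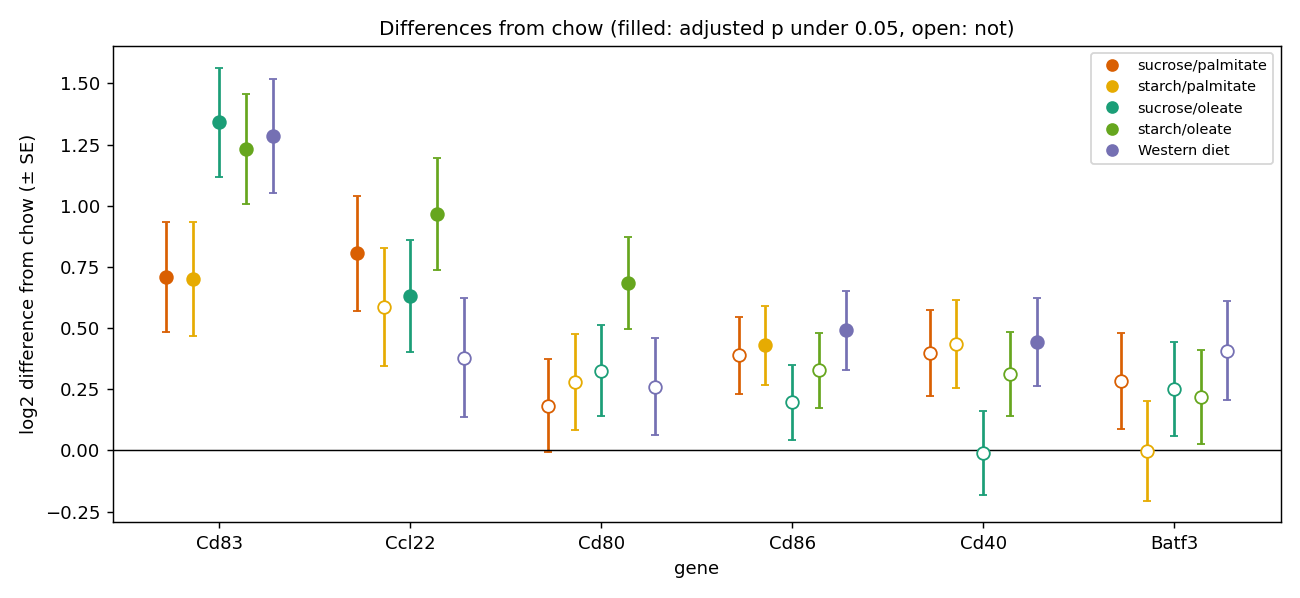
Log2 difference from chow (points, with bars of ± SE) of each gene on the 5 diets; filled points passed at an adjusted p under 0.05 in edgeR's quasi-likelihood test. Cd83 has filled points on all 5 diets, Ccl22 on 3, Cd86 on 2, Cd80 and Cd40 on 1 each and Batf3 on none.

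By diet, none of the 6 genes fell against chow. On sucrose/palmitate 2 rose (Cd83 and Ccl22), beside 14.9% of all genes. On starch/palmitate 2 rose (Cd83 and Cd86), beside 20.6%. On sucrose/oleate 2 rose (Cd83 and Ccl22), beside 28.9%. On starch/oleate 3 rose (Cd83, Ccl22 and Cd80), beside 48.3%, so that the count of the 6 was near that of the whole panel. On the Western diet 3 rose (Cd83, Cd86 and Cd40), beside 32.8%. The median log2 difference of all genes from chow lay between 0.19 and 0.34 with scaling to the reference genes, and between 0.01 and 0.08 with TMM scaling, which takes most genes as unchanged. With TMM scaling 5 of these calls did not pass, those on Cd83 with sucrose/palmitate (0.55, adjusted p = 0.053), Ccl22 with sucrose/oleate (0.49, adjusted p = 0.0621), Cd86 with starch/palmitate (0.24, adjusted p = 0.107) and the Western diet (0.25, adjusted p = 0.0787), and Cd40 with the Western diet (0.24, adjusted p = 0.197). Relative to the median, Cd83 stood 0.46 to 1.15 higher on the 5 diets. Relative to it on starch/oleate, Cd86, Cd40 and Batf3 stood at -0.02, -0.03 and -0.13, and TMM scaling turned the sign of these 3 differences from chow.

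Between diets of matched energy shares, the 6 genes were compared pairwise and by factor. Starch/oleate against sucrose/palmitate, which differ in carbohydrate and fat, passed for 1 of 6 in edgeR's test, beside 28.7% of all genes higher there. This was Cd80, 0.50 ± 0.19 higher on starch/oleate (adjusted p = 0.0296), with means of 262 and 185. The call was lost with TMM scaling (0.35, adjusted p = 0.0631), DESeq2 (0.35, adjusted p = 0.0607) or the lymph node covariate (0.37, adjusted p = 0.0993), and without sucrose/palmitate replicates 4, 5 or 8 (highest adjusted p = 0.0801). Sucrose against starch over both fats passed for 0 of 6 in edgeR's quasi-likelihood test (0 at an unadjusted p under 0.05, 0 by DESeq2), beside 9.98% of all genes in either direction. The interaction of carbohydrate and fat gave 0 of 6 in edgeR (0 unadjusted, 0 by DESeq2), beside 5.5%. Of the single steps, sucrose against starch gave 0 of 6 in edgeR with palmitate (0 unadjusted, 0 by DESeq2), beside 2.04%, and 0 of 6 with oleate (0 unadjusted, 0 by DESeq2), beside 15.1%. Palmitate against oleate gave 0 of 6 in edgeR with sucrose (2 unadjusted, Cd40 and Cd83, and 2 by DESeq2), beside 3.67%, and 0 of 6 with starch (2 unadjusted, Cd80 and Cd83, and 0 by DESeq2), beside 32.6%. The Western diet against sucrose/palmitate gave 0 of 6 in edgeR (1 unadjusted, Cd83, and 0 by DESeq2), beside 6.11%, and Cd83 passed without Western diet replicate 2 (adjusted p = 0.0173).

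Over both carbohydrates, palmitate against oleate gave signs that differed among the costimulatory genes. Cd40 was 0.26 ± 0.12 higher with palmitate (adjusted p = 0.0856) and Cd86 0.15 ± 0.11 higher (adjusted p = 0.310), whereas Cd80 was at -0.27 ± 0.13 (adjusted p = 0.105). With TMM scaling Cd40 (0.34, adjusted p = 0.00531) and Cd86 (0.23, adjusted p = 0.0170) passed, as they did with DESeq2 (adjusted p = 0.00251 and 0.0101). Cd40 also passed without starch/palmitate replicate 2 (adjusted p = 0.0420) or 5 (adjusted p = 0.0494), and Cd80 without sucrose/palmitate replicate 1 (adjusted p = 0.0442) or starch/palmitate replicate 4 (adjusted p = 0.0177). With starch alone Cd80 passed without starch/palmitate replicate 4 (adjusted p = 0.0100). The call on these genes thus changed with the scaling and with single samples.

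Ratios of 2 genes within a sample do not depend on the scaling between samples, and 16 ratios were compared in 9 comparisons by two-sided exact permutation tests, adjusted over the 144. Of these 62 passed. Cd80 over Cd86 had a geometric mean of 0.986 on chow, 0.880 on starch/palmitate and 1.26 on starch/oleate. With starch, this ratio was lower by a log2 difference of -0.52 ± 0.13 with palmitate than with oleate (adjusted p = 0.0110), and all 7 palmitate samples lay below the oleate mean. With sucrose it was -0.37 ± 0.20 (adjusted p = 0.150), and -0.51 (adjusted p = 0.00942) without sucrose/oleate replicate 2, whose ratio of 0.492 was the lowest of all. Against chow the starch/oleate ratio was higher by 0.36 ± 0.13 (adjusted p = 0.0456), or 0.28 (adjusted p = 0.0927) without chow replicate 4. Starch/palmitate against chow was -0.16 ± 0.11 (adjusted p = 0.274), or -0.24 (adjusted p = 0.0307) without that sample.

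Cd83 over Cd86 also differed with the fat. Its geometric mean was 3.84 on chow, 4.72 and 4.77 on sucrose/palmitate and starch/palmitate, 8.70 and 7.42 on sucrose/oleate and starch/oleate, and 6.58 on the Western diet. The ratio was lower with palmitate than with oleate by a log2 difference of -0.88 ± 0.23 with sucrose (adjusted p = 0.0122) and -0.64 ± 0.11 with starch (adjusted p = 0.00168). In the 2 steps 0 of 8 and 0 of 7 palmitate samples exceeded the oleate mean. Against chow it was higher by 1.18 ± 0.28 with sucrose/oleate (adjusted p = 0.00480), 0.95 ± 0.22 with starch/oleate (adjusted p = 0.00105) and 0.78 ± 0.25 with the Western diet (adjusted p = 0.0210). The palmitate diets differed from chow by 0.30 with sucrose (adjusted p = 0.368) and 0.31 with starch (adjusted p = 0.319). Cd40 over Cd86 passed in none of the 9 comparisons, with differences from -0.18 to 0.21. Ccl22 over Cd83 was lower with sucrose/oleate than with chow (-0.63 ± 0.21, adjusted p = 0.0249) and than with sucrose/palmitate, which exceeded it by 0.91 ± 0.28 (adjusted p = 0.0164).

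**Figure D3:**
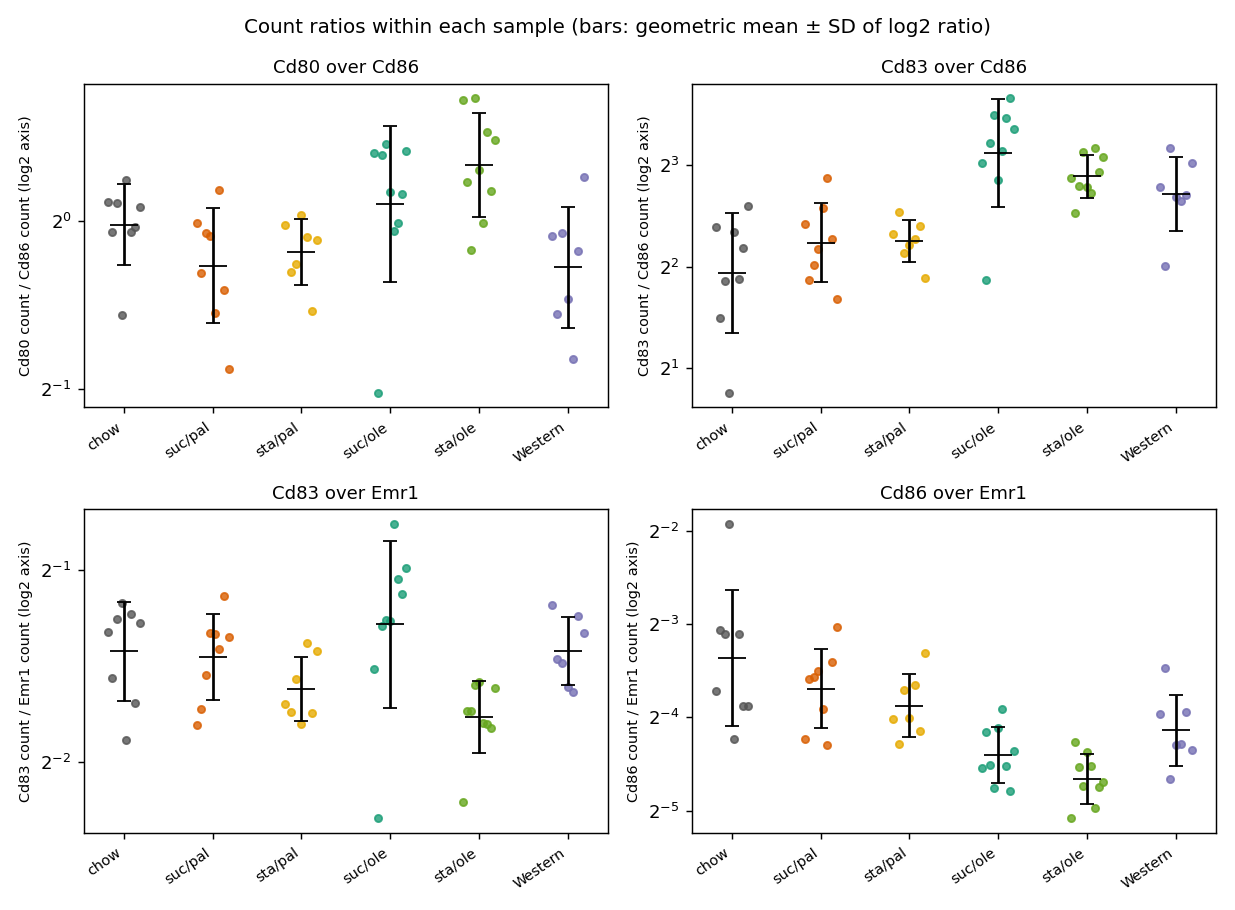
Ratios of counts within each sample by diet on log2 axes (suc, sucrose; sta, starch; pal, palmitate; ole, oleate); horizontal marks with bars are the geometric mean ± SD of the log2 ratio. Cd83 over Cd86 is higher on the oleate diets than on the palmitate diets, while Cd86 over Emr1 falls from 0.097 on chow to 0.040 on starch/oleate.

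The 6 genes were also set against Emr1, the F4/80 gene of macrophages, and Itgax. Both denominators rose by more than the panel's median of 0.34 on starch/oleate, so a lower ratio is common to many genes there. Emr1 rose by 1.52 ± 0.26 (adjusted p = 3.5e-06) and Itgax by 1.92 ± 0.33 (adjusted p = 4.6e-06) with starch/oleate. Over Emr1, with adjustment over the 144 ratio tests, Cd80 was lower on 5 of 5 diets, Batf3 on 4, Cd86 on 3, Cd40 on 2, Cd83 on 1 and Ccl22 on none, and none was higher. Cd83 over Emr1 was 0.372 on chow, 0.411 on sucrose/oleate, 0.373 on the Western diet and 0.294 on starch/oleate, where alone it differed from chow (-0.34 ± 0.11, adjusted p = 0.0223). Cd86 over Emr1 was lower by -1.29 ± 0.27 with starch/oleate (adjusted p = 0.000658) and -1.04 ± 0.27 with sucrose/oleate (adjusted p = 0.00296), with 0 of 9 samples above the chow mean in each. Over Itgax, Batf3 was lower on 5 of 5 diets, Cd83 and Cd80 on 4, and Ccl22, Cd86 and Cd40 on 3. The same test was run on all 490 genes tested other than the denominator, adjusted over them. Over Emr1 it found 3.88% lower than chow on sucrose/palmitate, 28% on starch/palmitate, 85.3% on sucrose/oleate, 86.1% on starch/oleate and 61.8% on the Western diet, with 0, 1, 4, 5 and 3 of the 6 genes among them. With this adjustment Cd80 over Emr1 was lower on sucrose/oleate, starch/oleate and the Western diet only. Over Itgax the shares were 51.8%, 49.6%, 97.6%, 92.9% and 86.9% in the same order, with 3, 1, 6, 6 and 6 of the 6 genes. On the oleate and Western diets the lower ratios were thus shared by most of the panel. Without chow replicate 4 the calls on Cd80 over Emr1 were lost for sucrose/palmitate (adjusted p = 0.0745) and starch/palmitate (adjusted p = 0.0763), and that on Cd86 over Emr1 for the Western diet (adjusted p = 0.0745). Without Western diet replicate 2, Cd83 over Itgax lost its call on that diet (adjusted p = 0.0548).

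These ratios also differed with the kind of fat. Cd86 over Emr1 was higher with palmitate than with oleate by 0.71 ± 0.18 with sucrose (adjusted p = 0.00849) and 0.78 ± 0.15 with starch (adjusted p = 0.00210), with 8 of 8 and 7 of 7 palmitate samples above the oleate mean. Cd40 over Emr1 was higher by 0.92 ± 0.21 with sucrose (adjusted p = 0.00267) and 0.77 ± 0.23 with starch (adjusted p = 0.0110). Over the panel, adjusted over all 490 genes, 9.8% were higher over Emr1 with palmitate in the sucrose step (2 of the 6, Cd86 and Cd40) and 44.3% in the starch step (3 of the 6, these and Batf3). For Cd83 over Emr1 the differences were -0.17 with sucrose (adjusted p = 0.458) and 0.14 with starch (adjusted p = 0.211). Sucrose/oleate exceeded starch/oleate in Cd83 over Emr1 by 0.48 ± 0.16 (adjusted p = 0.0227). Positive control A over B did not overlap between these diets, and no ratio test took it as a covariate.

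The 6 genes varied together only in part. Correlations of log2 levels over the 48 samples were computed for the 15 pairs, with permutation p-values adjusted over them. Cd86 and Cd40 were closely related (r = 0.708, permutation p = 1e-05, adjusted 5e-05, rho = 0.683), the p being the smallest that 100000 resamples can give. The relation remained after subtraction of diet means (r = 0.647, adjusted permutation p = 0.0001) and without the 2 samples farthest from the median (r = 0.626). Cd83 was related to Cd80 (r = 0.706, permutation p = 1e-05, adjusted 5e-05, rho = 0.672, 0.643 without the 2 samples; within diets r = 0.748, adjusted permutation p = 0.0001). It was related likewise to Batf3 (r = 0.663, permutation p = 1e-05, adjusted 5e-05, rho = 0.631, 0.535 without the 2 samples; within diets r = 0.703, adjusted permutation p = 0.0001). Cd83 and Cd40 were not shown to be related (r = 0.254, permutation p = 0.0831, adjusted 0.0891, rho = 0.202). In all, 11 of 15 pairs passed by r and 9 by rho, and within diets 9 and 6. The share of all pairs of the panel that would pass was not computed. The median rho with all genes ran from 0.115 (Batf3) to 0.327 (Cd86). Signs also differed among single diets. Cd83 with Cd86 gave r = -0.497 on chow, -0.852 on sucrose/oleate and 0.570 on starch/oleate. It gave 0.780 on sucrose/palmitate, 0.885 on starch/palmitate and 0.929 on the Western diet. Chow replicate 4 (323 and 191) and sucrose/oleate replicate 2 (1014 and 277) each had the lowest Cd83 and highest Cd86 of their group. Western diet replicate 2 (432 and 106) was lowest for both. The r of single diets was not computed without these samples, so whether the signs differ without them was not tested. The relation of Ccl22 to Batf3 (r = 0.330, permutation p = 0.0228, adjusted 0.0333) rested on the 2 farthest samples, without which r was 0.013, and its rho of 0.130 did not pass.

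**Figure D4:**
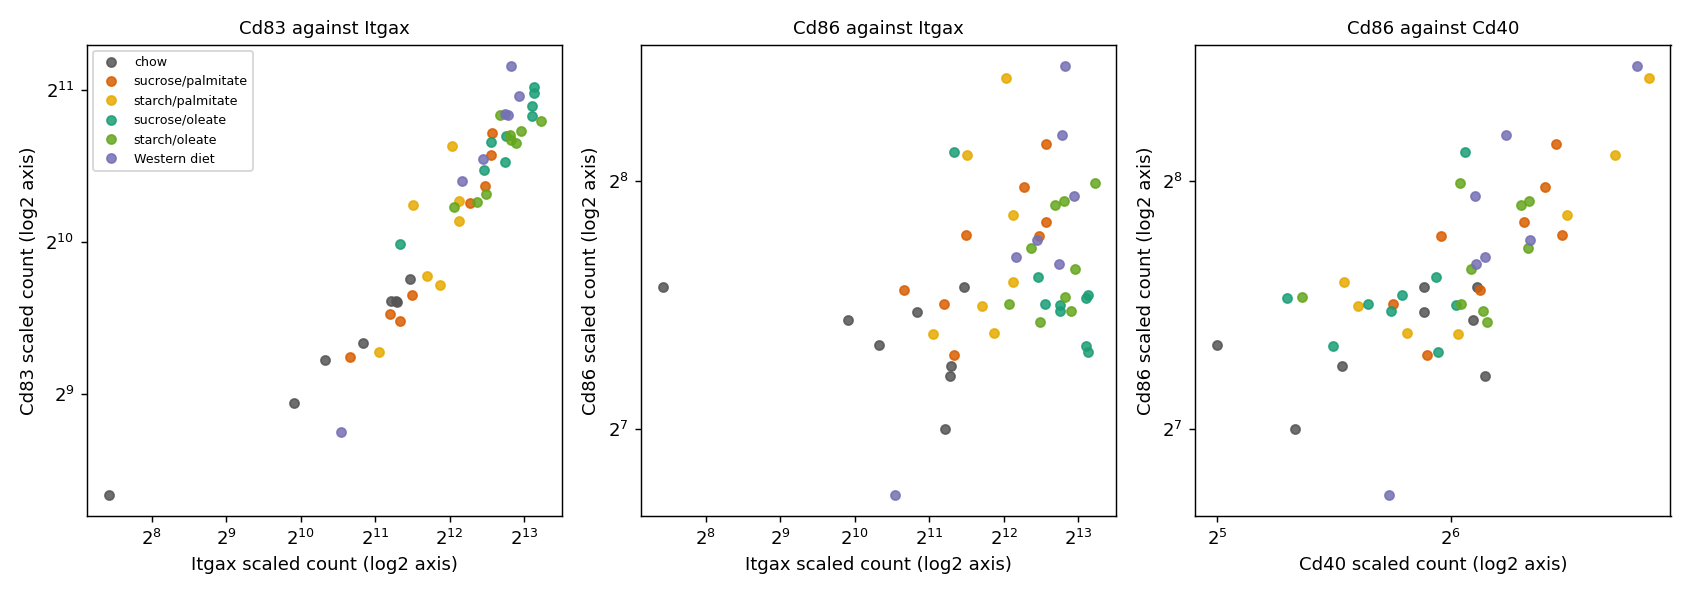
Scaled counts of gene pairs in the 48 samples on log2 axes, coloured by diet. Cd83 lies along a narrow band against Itgax (rho 0.951), Cd86 is scattered against Itgax (rho 0.332), and Cd86 rises with Cd40 (rho 0.683); chow replicate 4 is the point at an Itgax level of 171.

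The genes most like the other members differed from those of Cd83, apart from Il7r, which was also among those of Batf3. For Cd80 they were Ly96, the MD-2 partner of the endotoxin receptor (rho 0.813), the transcription factor Irf5 (0.812) and Ptafr, the receptor for platelet-activating factor (0.810), falling to 0.571, 0.554 and 0.569 after subtraction of diet means. For Cd86 they were Tnfrsf14, the HVEM receptor (0.754), Tlr9 (0.752) and Fcgr1 (0.715). After subtraction of diet means these were 0.767, 0.683 and 0.603, and Fcgr1 then ranked 40 of 485 genes. For Cd40 they were again Tnfrsf14 (0.711), with Cd79b, a chain of the B cell receptor (0.667), and Il2rg, the common cytokine receptor chain (0.663). Within diets these were 0.659, 0.577 and 0.649, and Cd79b then ranked 43. For Batf3 they were Map4k1 (0.675), Il1rl1, the interleukin 33 receptor (0.598), and Il7r (0.592), with 0.613, 0.624 and 0.670 within diets. The rho of Cd40 with Itgax was 0.0976 and with Emr1 0.403, and that of Cd86 with Itgax was 0.332.

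Summed markers of several other cell types were also higher on starch/oleate than on chow. The summed level of 9 macrophage markers ran from 4006 to 10390 on chow and from 11064 to 18144 on starch/oleate, without overlap, and that of 9 B cell markers from 470 to 2015 and from 2921 to 3866, again without overlap. The 4 dendritic cell markers summed to 489 to 3524 on chow and 5115 to 10508 on starch/oleate, and Itgax made up most of that sum. In the F test of any difference Itgax, Irf8 and Irf4 passed, and Xcr1 did not (adjusted p = 0.210). T cell markers ran from 285 to 468 on chow and 477 to 1019 on starch/oleate. Of these 9 markers, 5 passed in the F test, beside 64.8% of all genes. On sucrose/palmitate the B cell sum (1355 to 3211) and macrophage sum (5712 to 15413) overlapped chow. So did the macrophage sum on the Western diet (3661 to 17068) and the T cell sum on sucrose/oleate (402 to 681). Summed neutrophil markers had medians of 722 on chow and 928 on starch/oleate, but 571 on sucrose/oleate and 525 on the Western diet. The 12 lymph node markers ran from 308 to 759 on chow and 589 to 1770 on starch/oleate. With the lymph node level as a covariate, Cd80 on starch/oleate was at 0.36 (adjusted p = 0.150) and Cd83 at 1.08 (adjusted p = 0.000881). That covariate also ended the calls on Cd83 (0.62, adjusted p = 0.112) and Ccl22 (0.69, adjusted p = 0.0785) with sucrose/palmitate, Cd86 with starch/palmitate (0.30, adjusted p = 0.0906), and Cd86 (0.24, adjusted p = 0.174) and Cd40 (0.17, adjusted p = 0.393) with the Western diet. In the F test it ended those on Ccl22 (adjusted p = 0.0568) and Cd80 (adjusted p = 0.247). Adipocyte genes moved the other way. The panel held 3 of the 6 listed, Cfd, Pparg and Cd36, and all 3 passed in the F test, beside 64.8% of all genes. Their median difference from chow ran from -0.56 (sucrose/palmitate) to -1.49 (starch/oleate), beside medians of 0.20 and 0.34 for all genes. On the oleate diets not all 3 passed as lower than chow. Their summed level had a median of 120420 on chow and 71040 on starch/oleate, and was at least 24238 in every sample. The 3 mast cell markers measured ran from 224 to 339 on chow and 367 to 767 on starch/oleate, without overlap. The part of cell composition in the results was not tested.

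Other genes of these pathways were taken from lists. Their counts stand beside the shares of all genes that rose, 14.9% on sucrose/palmitate, 20.6% on starch/palmitate, 28.9% on sucrose/oleate, 48.3% on starch/oleate and 32.8% on the Western diet. Of 15 genes of CD40 and NF-kappa B signalling tested, 8 rose against chow on starch/oleate and 8 on the Western diet, where 1 fell; 4 rose on sucrose/oleate, 4 on starch/palmitate and 3 on sucrose/palmitate. The list's median was 0.32 on starch/oleate, beside 0.34 for all genes. Tnfaip3, the A20 brake on NF-kappa B, had means of 293 on chow, 376 on starch/palmitate and 379 on sucrose/palmitate. The means were 432 on the Western diet, 531 on sucrose/oleate and 546 on starch/oleate. It rose by 0.90 ± 0.13 with starch/oleate (adjusted p = 2e-07), and with palmitate against oleate fell by 0.51 ± 0.09 (adjusted p = 4.5e-05). The means on chow, the palmitate diets and the oleate diets stood in that order, as they did for Cd83. The Western diet mean lay below both oleate diets for Tnfaip3 and between them for Cd83. Traf5, an adaptor of CD40 and related receptors, rose on all 5 diets, by 0.35 ± 0.11 (starch/palmitate) to 0.70 ± 0.11 (starch/oleate).

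Receptors on T cells and other ligands followed. Of 9 receptors of costimulation on T cells, 3 rose on starch/oleate, 2 on starch/palmitate and none on the other diets, and none fell. Icos, an inducible relative of CD28, rose by 0.80 ± 0.23 with starch/oleate (adjusted p = 0.0024) and 0.68 ± 0.24 with starch/palmitate (adjusted p = 0.030). Pdcd1, the inhibitory receptor PD-1, rose on the same diets by 1.02 ± 0.34 (adjusted p = 0.0095) and 1.71 ± 0.35 (adjusted p = 0.00055), from a mean of 11 on chow, near the negative control mean of 7.51. Its samples were uneven on starch/palmitate, with a mean of 36.5 and an SD of 32.1. Of 6 other ligands, 3 rose on starch/oleate, 1 on sucrose/oleate and 1 on the Western diet. Cd48, a ligand of CD2 family receptors, rose by 1.35 ± 0.24 with starch/oleate (adjusted p = 6e-06). Icosl, the ligand of ICOS, was at -0.16 ± 0.13 there (adjusted p = 0.30), and with starch was 0.44 ± 0.14 higher with palmitate than with oleate (adjusted p = 0.015).

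Among genes of migration, lineage and cytokines, Ccr7, the receptor that leads mature dendritic cells to lymph nodes, rose on starch/oleate (0.82 ± 0.22, adjusted p = 0.0011) and was at 0.21 to 0.46 on the other diets, where it did not pass. Ccl5 rose with starch/oleate (0.83 ± 0.23, adjusted p = 0.0019) and starch/palmitate (0.74 ± 0.24, adjusted p = 0.020). In all, 2 of 3 chemokine axis genes rose on starch/oleate, 1 on starch/palmitate and none elsewhere. Of 9 lineage genes, 4 rose and 1 fell on starch/oleate, 3 rose and 1 fell on sucrose/oleate, 4 rose on starch/palmitate, 4 on the Western diet and 1 on sucrose/palmitate. Irf8, which sets the fate of cross-presenting dendritic cells, rose on starch/oleate by 1.07 ± 0.18 (adjusted p = 4.5e-06). Of 9 cytokine genes, 3 rose on each oleate diet, 2 on each palmitate diet and 1 on the Western diet. Ebi3, a subunit of interleukins 27 and 35, rose on all 5 diets, by 0.72 ± 0.24 (starch/palmitate) to 1.27 ± 0.23 (starch/oleate). Il12a, the p35 subunit of interleukin 12, rose on sucrose/palmitate alone (0.72 ± 0.24, adjusted p = 0.034), at a mean of 18.8 against 11.3 on chow. Beside the median of 0.34 for all genes on starch/oleate, the list medians there were 0.21 for the T cell receptors, 0.44 for the other ligands, 0.82 for the chemokine axis, 0.35 for the lineage genes and 0.32 for the cytokines.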

How the data were processed

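The NanoString nCounter Mouse Immunology panel was run on RNA of 48 fat samples. The deposited counts are whole numbers per probe, unscaled, per the values of the table. The counting software is not given in the sources used here. The lowest count was 1, in 151 of 27600 values. Groups came from the labels. The geometric mean of 14 reference genes served to scale each sample, and 491 of 547 genes, those averaging at least 10 counts, were tested. The quasi-likelihood fit of edgeR 4.0.16 under R 4.3.3 held 1 mean per diet over all samples (glmQLFit, glmQLFTest), two-sided, with Benjamini-Hochberg adjustment over the genes tested. It was checked on simulated counts. Ratios used log2 of counts + 1 and two-sided exact permutation tests. Alternatives were TMM scaling, no filter, a minimum mean count of 30, the replicate block, only the compared groups, DESeq2 1.42.0, lymph node or positive control covariates, and leaving out samples. The 6 genes, the pathway lists and the marker lists were chosen with earlier results of these data known. Named pathway genes are the 2 with the smallest F test p of each list. The replicate numbers did not pair samples. No 2 libraries were copies (lowest chi-square per degree of freedom 4.69). Promoter sequences matched 3 of the 6 genes by symbol.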

Additional observations from a re-analysis of the deposited data

Results flagged for a closer look

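Each of the 36 combinations of gene and diet was searched for a sample far from the rest of its group, and chance alone flags about 1 in 20 groups. The search found 3. Cd80 of starch/palmitate replicate 4 was 351, with the next sample at 230. That sample was the highest of its group for 5 of the 6 genes. Cd86 of sucrose/oleate replicate 2 was 277, with the next at 196. The summed neutrophil markers of that sample were 5305 and its lymph node markers 6495. Cd40 of starch/oleate replicate 4 was 41.2, with the next at 65.8. The part of cell composition in these values was not tested.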

How the results depend on the processing

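The rise of Cd83 on starch/oleate and the Western diet, its lower level with palmitate than with oleate, and the rise of Ccl22 on starch/oleate kept their calls in all 9 alternatives. Each other call against chow was lost in at least 1 alternative, that of Cd80 on starch/oleate with the lymph node covariate alone and those of Cd83 on sucrose/oleate and starch/palmitate with the positive control covariate alone. The number of the 6 genes that rose against chow fell on sucrose/palmitate from 2 to 1 with TMM scaling or the positive control covariate and to 0 with only the compared groups or the lymph node covariate (0 to 3 with 1 sample left out). On starch/palmitate it fell from 2 to 1 with TMM scaling, no filter, the replicate block, only the compared groups, DESeq2 or the lymph node covariate, and to 0 with the positive control covariate (0 to 4 with 1 sample left out). On sucrose/oleate it fell from 2 to 1 with TMM scaling or DESeq2 and to 0 with the positive control covariate (1 to 2). On the Western diet it fell from 3 to 1 with TMM scaling, only the compared groups, DESeq2 or the lymph node covariate, and to 2 with no filter, the replicate block or without the libraries high in epithelium genes (1 to 4). On starch/oleate it was 2 with the lymph node covariate and 4 with only the compared groups (3 to 4). Palmitate against oleate went from 1 to 3 with TMM scaling or DESeq2 and to 2 with the lymph node covariate (1 to 2). With sucrose it went from 0 to 2 with TMM scaling or DESeq2 and to 1 with the lymph node covariate (0 to 1). With starch it went from 0 to 1 with only the compared groups or either covariate (0 to 2). Sucrose against starch with oleate went from 0 to 1 with only the compared groups. The Western diet against sucrose/palmitate gave 0 to 1 with 1 sample left out. Starch/oleate against sucrose/palmitate, a comparison added after the data were seen, went from 1 to 0 with TMM scaling, DESeq2 or the lymph node covariate, and to 2 with a mean count of at least 30, only the compared groups or without the libraries high in epithelium genes (0 to 2). The F test gave 2 of 6 with the lymph node covariate (3 to 5 with 1 sample left out). The ratio tests passed 62, 60 with the negative control mean subtracted, and 59 to 67 without 1 of the 3 samples standing apart, a choice made after the data were seen. The causes were not tested.

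Of 804 values for single genes, 48 changed sign, none of a called difference and none above 0.34 in size. With TMM scaling, starch/oleate against chow gave Cd86 -0.0023, Cd40 -0.0063 and Batf3 -0.088. Ccl22 gave 0.021 for sucrose against starch and 0.0029 for palmitate against oleate, Cd86 -0.037 in the interaction and 0.0094 for sucrose against starch with oleate, and Cd40 -0.0018 for the Western diet against sucrose/palmitate. Starch/oleate against sucrose/palmitate gave Ccl22 -0.024 with TMM scaling and -0.025 with DESeq2. With DESeq2 the values before that comparison were -0.017, -0.025, -0.12, 0.019, 0.0055, -0.049 and 0.011 in the same order without the last, and Cd86 on sucrose/oleate was -0.0067. With the lymph node covariate, Cd80 on sucrose/palmitate was -0.0074, and Cd86 and Cd40 on starch/oleate were -0.074 and -0.17. Sucrose against starch gave Ccl22 0.010 and Cd86 0.016, with palmitate Cd83 -0.031, and with oleate Cd86 0.18 and Cd40 0.077. The interaction gave Cd80 -0.084, Cd86 -0.33 and Cd40 -0.23. With the positive control covariate, Batf3 on starch/palmitate was 0.043 and Cd86 on sucrose/oleate -0.074, and Cd83 in the interaction was 0.34. Sucrose against starch gave, with palmitate, Cd80 0.028, Cd86 0.13 and Cd40 0.18, and with oleate Cd83 -0.12. Palmitate against oleate gave, with sucrose, Ccl22 -0.082, Cd80 0.0029 and Batf3 -0.0073, and with starch Cd86 -0.040 and Cd40 -0.047. Without the 5 libraries high in epithelium genes, sucrose against starch gave Cd83 -0.017 and Cd40 0.0037 with palmitate and Batf3 -0.046 with oleate, and starch/oleate against sucrose/palmitate gave Batf3 0.015.

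With the replicate block, Cd40 on sucrose/oleate was 0.027, and sucrose against starch with palmitate gave Cd83 -0.035 and Cd86 0.0021. The replicate block left 2, 1, 2, 3 and 2 of the 6 genes called against chow on sucrose/palmitate, starch/palmitate, sucrose/oleate, starch/oleate and the Western diet. The numbers do not pair the samples: across diets, deviations from the diet means correlated at -0.016 on average for 112 pairs sharing a number and at 0.0067 for 846 others.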
